A study of Mus musculus with 2 samples.

Results

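Bone morphogenetic protein (BMP) signalling was examined in mouse eye organoids through 5 genes: the ligands Bmp4 and Bmp7 and the target genes Id1, Id2 and Id3. They were taken by symbol, and each was found on 1 of the 27998 gene lines. The organoids were grown from Rax-GFP embryonic stem cells, the line EB5 heterozygous for a GFP gene knocked in at Rax, so that GFP marks the eye field. This genotype was shared by all cells. Aggregates were cultured in retinal differentiation medium with Matrigel and taken at culture day 6, when optic vesicles begin to bud, and at culture day 4, the eye field stage. Each day was 1 library of the 10x Genomics Chromium 3' v2 kit into which 3 biological experiments had been pooled. Cells could not be assigned to an experiment here, and a day therefore counts as 1 sample. No p-value is given, and the intervals are 95% intervals that cover counting error only.

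BMP ligands are secreted dimers of the TGF-beta family. They bind paired type I and type II serine/threonine kinase receptors, and the activated receptors phosphorylate Smad1, Smad5 and Smad9, which enter the nucleus with Smad4. Id1, Id2 and Id3 are classic direct targets of these Smads. Id proteins hold a helix-loop-helix domain without a DNA-binding region and sequester E proteins such as Tcf3, Tcf4 and Tcf12, which keeps progenitors from differentiating. In the mouse, BMP4 is needed for lens induction and BMP7 for normal eye growth, and both ligands pattern the optic vesicle and the dorsal forebrain. In mouse embryonic stem cells, BMP4 acting through Id genes is known to help hold the pluripotent state.

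After the filter on cells, day 6 held 6641 cells and 87800738 unique molecular identifiers (UMIs), with a median of 12514 UMIs per cell, and day 4 held 8147 cells and 98643495 UMIs, with a median of 11216. The libraries shared 91 barcode sequences, of which 78 were among kept cells. Median mitochondrial shares were 2.48% on day 6 and 2.998% on day 4. The summed level of 6 genes of the dissociation response was 154 CPM on day 6, against 99.1 CPM on day 4, and its part in the differences between days was not tested. Levels are given as the summed UMIs of a gene per 1000000 summed UMIs of the same cells (CPM).

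In the RefSeq annotation of build GRCm38.p6, Id1 lies at chr2:152736251-152737410, Bmp7 at chr2:172868012-172940321, Id3 at chr4:136143822-136145392, Id2 at chr12:25093799-25096092 and Bmp4 at chr14:46383525-46390669. All 5 are protein-coding genes. RefSeq promoter sequences matched 3 of the members, Id3, Id2 and Bmp4. The 250 bases before the annotated start of each are shown because Smad proteins bind letters of the kinds marked here. They run 5′ to 3′ on the gene's own strand, and capitals mark the letters GGCGCC or the letters GGAGCC or the letters GTCTG on either strand, so that GGAGCC read on the other strand appears as its reverse complement, as does GTCTG. The stretches are chr4:136143572-136143821 on the plus strand, chr12:25096093-25096342 on the minus strand and chr14:46390670-46390919 on the minus strand.
Id3: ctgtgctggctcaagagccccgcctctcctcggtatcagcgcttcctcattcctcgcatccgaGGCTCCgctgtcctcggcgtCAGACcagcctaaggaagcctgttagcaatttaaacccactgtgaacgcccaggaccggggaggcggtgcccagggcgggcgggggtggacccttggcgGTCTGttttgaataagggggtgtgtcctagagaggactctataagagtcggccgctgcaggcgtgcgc
Id2: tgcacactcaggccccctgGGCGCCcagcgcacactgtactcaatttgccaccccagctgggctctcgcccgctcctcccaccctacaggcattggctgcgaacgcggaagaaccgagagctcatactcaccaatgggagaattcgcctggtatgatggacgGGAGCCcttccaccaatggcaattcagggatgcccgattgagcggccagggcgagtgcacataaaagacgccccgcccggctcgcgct
Bmp4: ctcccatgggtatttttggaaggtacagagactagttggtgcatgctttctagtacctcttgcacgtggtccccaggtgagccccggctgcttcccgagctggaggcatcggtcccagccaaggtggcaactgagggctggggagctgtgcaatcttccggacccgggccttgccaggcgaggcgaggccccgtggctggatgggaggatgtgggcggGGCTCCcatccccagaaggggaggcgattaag

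The window before Id3 held 1 match to GGAGCC and 2 to GTCTG, the window before Id2 held 1 to GGCGCC and 1 to GGAGCC, and the window before Bmp4 held 1 to GGAGCC. Over the 32851 promoter windows of the same length in the table, 9.59% held GGCGCC, 26.0% GGAGCC and 42.2% GTCTG. The E-box letters CANNTG, read by E proteins and other helix-loop-helix factors, were found 1 time before Id2, 3 times before Bmp4 and 0 times before Id3, and in 66.2% of all windows. A match describes the letters and is not a bound site.

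Across all cells, day 6 had more Bmp7, Id2 and Id3 than day 4, whereas the level of Id1 differed little. Bmp7 stood at 18.3 CPM (17.4 to 19.2) on day 6 and at 2.47 CPM (2.17 to 2.80) on day 4, a ratio of 7.39 (6.46 to 8.50). Id3 stood at 530 CPM (526 to 535) on day 6 and at 195 CPM (193 to 198) on day 4, a ratio of 2.72 (2.67 to 2.76). Id2 stood at 117 CPM (115 to 120) on day 6 and at 50.5 CPM (49.1 to 51.9) on day 4, a ratio of 2.33 (2.25 to 2.41). The Bmp7 ratio was thus the largest of the 5, although its UMIs were few, 1606 on day 6 and 244 on day 4.

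Id1 was at 76.3 CPM (74.5 to 78.2) on day 6 and at 74.8 CPM (73.1 to 76.5) on day 4, a ratio of 1.02 (0.987 to 1.06). Bmp4 was at 6.94 CPM (6.40 to 7.51) on day 6 and at 2.87 CPM (2.54 to 3.22) on day 4, a ratio of 2.42 (2.10 to 2.79). Calls were made on size alone, with no replicate check: a ratio of 1.5-fold or more in either direction, an interval that left out 1, and a mean level over the 2 sides of at least 10 CPM. With this definition 4 of the 5 members could be called and 3 were higher on day 6 (Bmp7, Id2 and Id3), against 13.3% of the 6699 genes at that level. None of the 5 was lower, against 6.28%. Bmp4 lay under the level and has no call. The median log2 ratio over all these genes was 0.14, and that over genes at 50 CPM or more was 0.11.

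**Figure D1:**
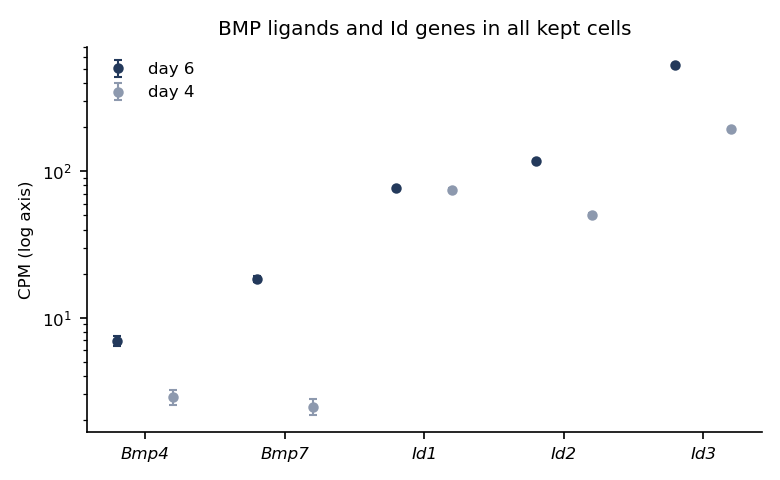
Level of each member in CPM (log axis) in all kept cells of day 6 (dark, left) and day 4 (light, right), 1 library each; bars are exact Poisson 95% intervals, often smaller than the point. Bmp7 shows the widest gap between the days, 18.3 CPM (day 6) against 2.47 CPM (day 4), and Id1 the narrowest, 76.3 CPM and 74.8 CPM.

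The shares of cells with a UMI, counted after each cell was thinned to 5000 UMIs, followed the levels, except for Id1. Its share was 25.4% (24.3 to 26.4) on day 6, against 21.8% (20.9 to 22.7) on day 4, although its level differed little. Id3 was found in 73.5% of cells on day 6, against 45.3% on day 4 (85.3% on day 6 and 62.1% on day 4 without thinning). For Bmp7 the share was 8.97% on day 6, against 1.43% on day 4 (20.5% on day 6 and 2.87% on day 4 without thinning). In the 148 cells of day 6 with at least 10 Col4a1 UMIs, a group rich in endoderm markers, the Id3 share was 17.6% and the Bmp7 share 1.35% after thinning, at a median depth of 10854 UMIs. The Bmp7 share of all day 4 cells was close to that of these cells, whose interval was wide (0.164% to 4.80%). Free RNA was not removed, and that of the day 4 library cannot be read from day 6 cells.

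Cells were then grouped within each library by their raw UMIs of 7 marker genes: at least 5 of Dppa5a, at least 10 of Col4a1, and at least 2 of Fgf5, Six6, Fezf2, Wnt8b or Sox10. Day 6 had 667 Dppa5a, 101 Fgf5, 2001 Six6, 823 Fezf2, 368 Wnt8b, 25 Sox10 and 148 Col4a1 cells, and 2918 cells in no group. Day 4 had 2178 Dppa5a, 3763 Fgf5, 27 Six6, 104 Fezf2, 1 Wnt8b, 0 Sox10 and 34 Col4a1 cells, and 2924 in no group. A cell could be in several groups, which held for 399 day 6 cells and 882 day 4 cells. The labels call the cells retina progenitors, and the marker groups show that this covers only part of them. Among marker lists that include the grouping gene, those of naive pluripotent cells stood at least 2-fold over the other cells for 8 of 8 genes in Dppa5a cells of each day, those of the optic vesicle for 5 of 6 in day 6 Six6 cells, those of the dorsal forebrain for 5 of 6 in day 6 Wnt8b cells, and those of endoderm for 9 of 9 in Col4a1 cells. The Fgf5 cells of day 4 were less distinct, with 1 of 6 epiblast genes past that fold. Groups of fewer than 50 cells were not compared.

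**Figure D2:**
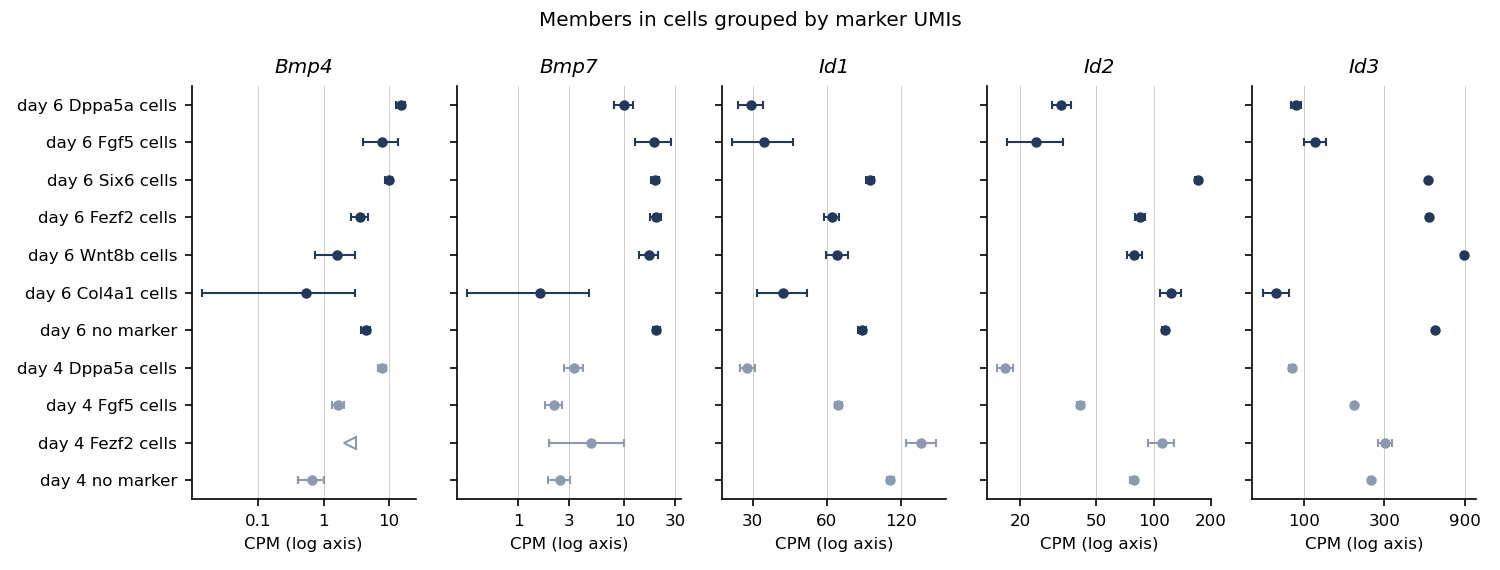
Level of the 5 members in CPM (log axis, 1 panel per gene) in cells grouped by marker UMIs, day 6 groups (dark) above day 4 groups (light); bars are exact Poisson 95% intervals and the open triangle marks the upper bound of a group with 0 UMIs. Only groups of 50 or more cells are drawn, and among these Bmp4 is highest in day 6 Dppa5a cells (15.2 CPM), Id2 in day 6 Six6 cells (170 CPM) and Id3 in day 6 Wnt8b cells (891 CPM).

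Bmp4 was the ligand that differed most between groups of 1 day. On day 6 it was at 15.2 CPM (12.9 to 17.9) in Dppa5a cells, 9.88 (8.74 to 11.1) in Six6 cells, 7.84 (4.05 to 13.7) in Fgf5 cells, 3.58 (2.60 to 4.81) in Fezf2 cells, 1.58 (0.725 to 3.01) in Wnt8b cells and 0.536 (0.0136 to 2.99) in Col4a1 cells. In this order the intervals of neighbours overlapped throughout, except between Dppa5a and Six6 cells. The share of cells with Bmp4 after thinning did not differ between these 2 groups. It was 4.95% (3.43 to 6.88) in Dppa5a cells and 5.05% (4.13 to 6.10) in Six6 cells. Single Dppa5a cells held up to 7 Bmp4 UMIs, and such clumping is not covered by the intervals. In Fgf5 cells 5 of the 12 UMIs lay in 1 cell. On day 4 it was at 7.87 CPM (6.87 to 8.98) in Dppa5a cells, 1.66 (1.33 to 2.05) in Fgf5 cells and 0.664 (0.406 to 1.03) in cells of no group, with 0 UMIs in 104 Fezf2 cells, which allows up to 2.54 CPM. Most Bmp4 UMIs of day 4, 220 of 283, were thus in Dppa5a cells, whereas on day 6 145 of 609 were in Dppa5a cells and 274 in Six6 cells.

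Bmp7 had another pattern, with like levels on day 6 in Six6, Fezf2, Wnt8b and Fgf5 cells and in cells of no group. It was lower in Dppa5a and Col4a1 cells, although 71 of the 101 Fgf5 cells were also Dppa5a cells. On day 6 it was at 19.6 CPM (18.0 to 21.3) in Six6 cells, 19.7 (17.3 to 22.4) in Fezf2 cells, 17.1 (13.9 to 20.8) in Wnt8b cells, 18.9 (12.7 to 27.2) in Fgf5 cells and, in cells of no group, between 18.6 and 21.5, and these intervals all overlapped. It was at 9.88 CPM (7.99 to 12.1) in Dppa5a cells and at 1.61 CPM (0.332 to 4.70), from 3 UMIs, in Col4a1 cells. On day 4, in the groups of 50 or more cells, it lay between 2.16 CPM in Fgf5 cells and 4.81 CPM (1.93 to 9.91) in Fezf2 cells.

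The Dppa5a cells, marked by a gene of naive pluripotent cells, had more Bmp4 and less of all 3 Id genes than the other cells of their day. On day 6, Id3 was at 89.3 CPM in Dppa5a cells and 584 CPM in the other cells (ratio 0.153, 0.143 to 0.164), Id2 at 32.8 and 128 CPM (0.257, 0.229 to 0.287), and Id1 at 29.5 and 82.0 CPM (0.360, 0.318 to 0.406). Bmp7 was also lower (0.512, 0.411 to 0.630), and Bmp4 was higher (2.57, 2.12 to 3.11). So 1 member was higher, against 13.2% of genes, and 4 were lower, against 24.2%. On day 4, Id1 was at 28.5 CPM in Dppa5a cells and 93.1 CPM in the other cells (0.306, 0.284 to 0.330), Id2 at 16.6 and 63.9 CPM (0.260, 0.236 to 0.286), and Id3 at 85.0 and 239 CPM (0.356, 0.341 to 0.372). The 3 Id genes were lower, against 7.94% of genes, and 0 members were higher, against 6.67%. Bmp4, with a ratio of 8.83 (6.65 to 11.9), was under 10 CPM in the mean, as was Bmp7 at 1.59 (1.21 to 2.07), and without Fgf5 cells, a setting added later, the Bmp4 ratio was 17.2 (10.9 to 28.4). With a minimum of 2 Dppa5a UMIs the Bmp4 ratio of day 6 was 2.15 with a mean under 10 CPM, without a call, and the Id ratios lay nearer 1 (0.391 for Id2 and 0.278 for Id3 on day 6; 0.470, 0.462 and 0.537 for Id1, Id2 and Id3 on day 4). Endoderm markers moved with the group on day 6, 9 of 9 with a summed 2079 CPM in Dppa5a cells and 356 CPM in the others, 84 of the cells being Col4a1 cells too; in cells of the Dppa5a group alone the ratio was 3.16 for Bmp4, 0.349 for Id1 and 0.14 for Id2.

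The levels changed step by step with the number of Dppa5a UMIs. On day 4, from cells with 0 Dppa5a UMIs through those with 1 to 4, 5 to 9, 10 to 19 and 20 or more, Id1 was at 100, 87.4, 54.9, 27.6 and 15.6 CPM. Id2 was at 70.1, 59.1, 33.3, 15.7 and 8.50 CPM in the same bins. Id3 was at 257, 225, 143, 79.4 and 57.7 CPM. The intervals of neighbouring bins did not overlap for any of the 3. Bmp4 went the other way, with 0.776, 0.980, 1.87, 4.42 and 12.2 CPM. On day 6 Id3 was at 594, 544, 227, 184 and 48.9 CPM and Id2 at 129, 124, 80.2, 57.1 and 20.5 CPM, while Id1 stayed between 80.2 and 85.7 CPM up to 9 UMIs and was at 17.4 CPM in the last bin. Bmp4 on day 6 had no steady order, with 5.99, 5.65, 15.9, 2.97 and 17.5 CPM, the middle bins resting on 18 and 4 UMIs.

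**Figure D3:**
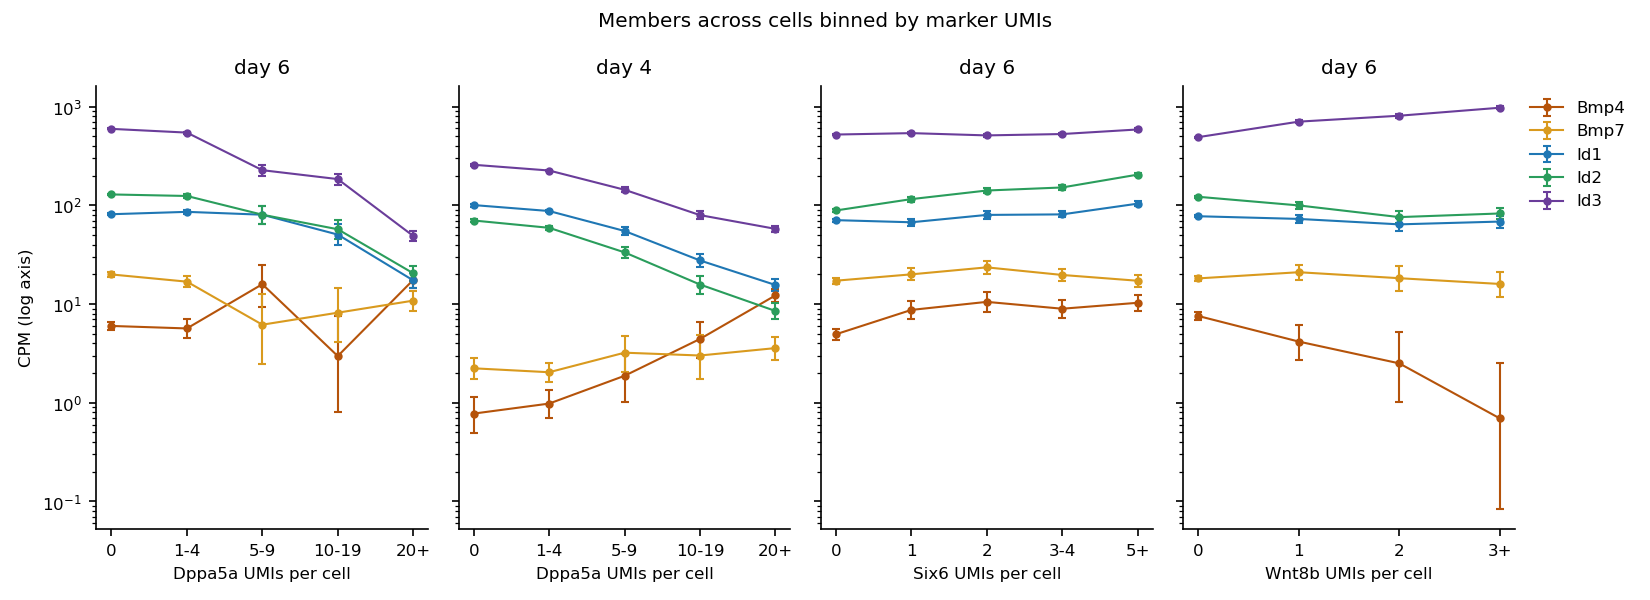
Level of the 5 members in CPM (log axis) against the UMIs of a marker per cell: Dppa5a on day 6 and on day 4, Six6 on day 6 and Wnt8b on day 6; bars are exact Poisson 95% intervals. The Id lines go down and the Bmp4 line goes up with Dppa5a on day 4 (Id3 is at 257 CPM in the lowest bin and 57.7 CPM in the highest), Id2 goes up with Six6, and Id3 goes up and Bmp4 down with Wnt8b.

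Six6 cells, marked by a transcription factor of the optic vesicle, had more Id2 than the other cells of day 6. Id2 was at 170 CPM (165 to 175) in Six6 cells and 93.1 CPM in the other cells of day 6, a ratio of 1.83 (1.76 to 1.90). The other cells included most of the 667 Dppa5a cells, at 32.8 CPM. Day 6 cells of no group were nearer, at 114 CPM (111 to 118), and no call was made against them. Id1 was at 89.9 and 70.1 CPM (1.28, 1.22 to 1.35), Id3 at 546 and 523 CPM (1.04, 1.02 to 1.06) and Bmp7 at 19.6 and 17.7 CPM (1.11, 0.998 to 1.23), all within the limits. Bmp4 was at 9.88 and 5.58 CPM (1.77, 1.504 to 2.08), under the level for a call. Thus 1 member was higher, against 1.40% of genes, and 0 were lower, against 3.30%. Id2 went up with Six6, being at 88.5, 115, 141, 151 and 204 CPM in cells with 0, 1, 2, 3 to 4 and 5 or more Six6 UMIs. Id3 stayed between 510 and 585 CPM over the same bins. With totals that left out mitochondrial and ribosomal protein genes, Bmp4 reached the level and was also higher. The 27 Six6 cells of day 4 had 276 CPM of Id2 (225 to 334), 198 CPM of Id1 (156 to 249) and 482 CPM of Id3 (414 to 557).

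Wnt8b cells, marked by a Wnt ligand of the dorsal forebrain, had the most Id3. It was at 891 CPM (866 to 915) in Wnt8b cells and 505 CPM in the other cells of day 6, a ratio of 1.76 (1.71 to 1.81). The other cells included most of the Dppa5a cells, at 89.3 CPM. Day 6 cells of no group were nearer, at 596 CPM (588 to 604), and no call was made against them. Id2 was at 79.2 and 120 CPM (0.660, 0.599 to 0.725). Hence 1 member was higher, against 1.75% of genes, and 1 was lower, against 2.53%. Id3 was at 489, 702, 807 and 972 CPM in cells with 0, 1, 2 and 3 or more Wnt8b UMIs, whereas Bmp4 was at 7.56, 4.16, 2.50 and 0.694 CPM. Against Six6 cells, Wnt8b cells had 1.63 times the Id3 (1.58 to 1.68) and 0.465 times the Id2 (0.422 to 0.513). The Id2 call against all other cells was lost with a minimum of 1 Wnt8b UMI (0.738), with a minimum of 3 (0.696) and with groups from thinned cells (0.794).

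Fezf2 cells, marked by a factor of the anterior forebrain, were near the other cells on day 6 and not on day 4. On day 6 no member passed, 0 higher against 0.752% and 0 lower against 1.62%. Id2 was at 84.4 and 123 CPM (0.687, 0.644 to 0.733), Id1 at 62.9 and 78.5 CPM (0.802, 0.743 to 0.864) and Id3 at 549 and 527 CPM (1.04, 1.02 to 1.07). Id2 crossed the limit in cells of the Fezf2 group alone (0.647) and with groups from thinned cells (0.651). On day 4, the 104 Fezf2 cells had more of each Id gene than the other cells: Id1 at 145 and 73.7 CPM (1.97, 1.71 to 2.26), Id2 at 110 and 49.6 CPM (2.22, 1.88 to 2.60) and Id3 at 302 and 194 CPM (1.56, 1.42 to 1.72). These 3 were higher, against 4.00% of genes, and 0 were lower, against 4.43%. Optic vesicle markers moved with them, 4 of 6 at least 2-fold over, with a summed 227 CPM in the Fezf2 cells and 35.6 CPM in the others, and their part in it was not tested. The other cells of day 4 included nearly all of the 2178 Dppa5a cells, which had 28.5 CPM of Id1, 16.6 of Id2 and 85.0 of Id3. Day 4 cells of no group had 109, 78.5 and 249 CPM, nearer the Fezf2 levels. No call was made against that group.

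Col4a1 cells, marked by a basement membrane collagen of endoderm, had nearly none of either ligand. On day 6 Id3 was at 68.1 CPM in Col4a1 cells and 540 CPM in the other cells (0.126, 0.105 to 0.1499), Id1 at 39.7 and 77.1 CPM (0.514, 0.403 to 0.647) and Bmp7 at 1.61 and 18.7 CPM from 3 UMIs (0.0862, 0.0178 to 0.252). These 3 members were lower, against 22.2% of genes, and 0 were higher, against 29.6%. Id2 did not follow Id3, being at 123 CPM (107 to 140) in Col4a1 cells and 117 CPM in the other cells (1.05, 0.913 to 1.19). The median mitochondrial share was 4.62% in Col4a1 cells, above that of the library. Of the 148 cells, 84 were also Dppa5a cells, and naive pluripotent markers stood at a summed 1548 CPM in Col4a1 cells and 551 CPM in the others, with 2 of 8 at least 2-fold over and 2 of 8 at 0. Of the 6 dissociation genes 3 were at least 2-fold over, with a summed 203 and 153 CPM. Their part in the differences was not tested. Id3 was at a ratio of 0.0791 in cells of the Col4a1 group alone. In the 34 Col4a1 cells of day 4 the levels were 126 CPM of Id2, 25.1 CPM of Id1 and 35.6 CPM of Id3.

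In the 101 Fgf5 cells of day 6, of which 71 were also Dppa5a cells, Id1 (0.432), Id2 (0.203) and Id3 (0.217) were lower than in the other cells, 3 members against 20.5% of genes, and 0 were higher, against 10.1%. With a minimum of 1 Fgf5 UMI Id2 was at 0.353 and Id3 at 0.391. In the 3763 Fgf5 cells of day 4 no member passed, 0 higher against 0.294% and 0 lower against 1.96%. Their Id2 was at 41.3 CPM and that of the other cells at 60.7 CPM (0.681, 0.643 to 0.720), close to the limit, and with a minimum of 3 Fgf5 UMIs 1 member was lower. Cells with 5 or more Fgf5 UMIs, whose median depth was 15830 UMIs, had 44.3 CPM of Id1 and 28.3 CPM of Id2, whereas cells with 0, at a median of 9532 UMIs, had 83.5 and 64.3 CPM. Fgf5 is a growth factor of the epiblast. The 25 Sox10 cells of day 6, whose 7 neural crest markers all stood at least 2-fold over other cells, had 207 CPM of Id2 (167 to 255), 97.99 CPM of Id1 and 0 Bmp4 UMIs, which allows up to 8.41 CPM.

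The day ratios were then taken within a group, since over all cells a different share of a cell type and a different level per cell cannot be told apart. A group marked by 1 gene need not hold like cells on both days, so share and level stay confounded within it. Summed epiblast markers were at 1521 CPM on day 4 and 809 on day 6 in Dppa5a cells, and at 1752 and 1317 in Fgf5 cells. They were at 1056 and 209 CPM in Fezf2 cells, and at 1227 and 205 in cells of no group. In Dppa5a cells, Id1 (1.04, 0.901 to 1.19) and Id3 (1.05, 0.970 to 1.14) differed little between the days, while Id3 over all cells had a ratio of 2.72. Bmp4 (1.94, 1.56 to 2.40) and Id2 (1.98, 1.71 to 2.29) were higher on day 6, 2 members against 10.1% of genes, and 0 were lower, against 3.57%. Each call was lost in at least 1 setting that left out cells shared with another group. Of the Dppa5a cells, 84 on day 6 and 27 on day 4 were also Col4a1 cells, and 71 on day 6 and 817 on day 4 were also Fgf5 cells. With Col4a1 cells left out the Id2 ratio was 1.36 (1.13 to 1.62), and with Fgf5 cells left out it was 2.14 (1.80 to 2.54). The Bmp4 ratio was 2.18 (1.76 to 2.71) without Col4a1 cells and 1.39 (1.10 to 1.75), without a call, when Fgf5 cells were left out. These settings were added after the data were seen. In cells of the Dppa5a group alone the Id2 ratio was 1.24 (0.988 to 1.56) and the Bmp4 ratio 1.60, and 1 member was still higher by size. Bmp7 was at 9.88 CPM on day 6, against 3.36 on day 4 (2.94, 2.18 to 3.95), under the level for a call.

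In Fezf2 cells, Bmp7 (4.096, 1.96 to 10.3) and Id3 (1.82, 1.65 to 2.01) were higher on day 6, 2 members against 11.6% of genes, and Id1 was lower (0.434, 0.372 to 0.508), 1 member against 5.89%. The Bmp7 ratio rests on 7 UMIs of day 4. Higher thresholds and groups from thinned cells left too few Fezf2 cells to be run. Id2 was at 84.4 CPM on day 6, against 110 on day 4 (0.768, 0.650 to 0.913). In Fgf5 cells, Bmp7 was higher on day 6 (8.77, 5.62 to 13.3), 1 member against 10.7%, and Id1 (0.498), Id2 (0.585) and Id3 (0.589) were lower, 3 members against 11.5%. These Fgf5 calls rest on 101 day 6 cells, most of them also Dppa5a cells, and with a minimum of 1 Fgf5 UMI 0 members passed either way and the Id3 ratio was 1.05. In cells of no group, the ratio was 8.14 (6.40 to 10.5) for Bmp7 and 2.39 (2.33 to 2.46) for Id3, and Id1 was at 83.7 CPM on day 6, against 109 on day 4 (0.770, 0.733 to 0.810).

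Set against the largest group of day 4, the Fgf5 cells, the Six6 cells of day 6 had 9.08 times the Bmp7 (7.39 to 11.2), 4.12 times the Id2 (3.92 to 4.34) and 2.75 times the Id3 (2.68 to 2.82). These 3 members were higher, against 18.2% of genes, and 0 were lower, against 8.46%. Id1 was at 89.9 CPM in the Six6 cells and 66.9 CPM in the Fgf5 cells (1.34, 1.28 to 1.42). Bmp4 was at 9.88 and 1.66 CPM (5.95, 4.66 to 7.68), under the level for a call.

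Whether Id transcripts lay in the same cells as the ligands was examined next. On day 6, the 468 cells with a Bmp4 UMI and the 6173 without had nearly the same levels of Id1 (79.9 and 76.0 CPM; 1.05, 0.961 to 1.15), Id2 (116 and 118 CPM; 0.985, 0.915 to 1.06) and Id3 (493 and 534 CPM; 0.923, 0.892 to 0.956). On day 4, the 242 cells with Bmp4 had less than the 7905 without: Id1 at 30.6 and 76.3 CPM (0.402, 0.327 to 0.489), Id2 at 15.8 and 51.7 CPM (0.305, 0.228 to 0.401) and Id3 at 81.3 and 199 CPM (0.408, 0.361 to 0.461). The lower Id levels of day 4 were found also within Dppa5a cells (0.449, 0.444 and 0.578 for Id1, Id2 and Id3) and within Fgf5 cells (0.582, 0.489 and 0.584). Of the Dppa5a group, however, the cells with Bmp4 were deeper, with a median of 13012 UMIs on day 4, against 11834 in those without, and had more Dppa5a, 4137 CPM against 2270 CPM. After thinning to 5000 UMIs, the ratios over all day 4 cells were 0.401, 0.279 and 0.382, whereas those within Dppa5a cells were 0.754 (0.322 to 1.51), 0.786 (0.251 to 1.88) and 0.744 (0.483 to 1.10), with all 3 intervals holding 1. Within Fgf5 cells they were then 0.318 (0.0654 to 0.931), 0.526 (0.108 to 1.54) and 0.674 (0.405 to 1.05), from 29 cells with Bmp4.

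Within the Dppa5a cells of day 6, the 90 cells with Bmp4 over the 577 without had ratios of 0.655 (0.436 to 0.954) for Id1, 0.668 (0.456 to 0.951) for Id2 and 1.05 (0.872 to 1.26) for Id3. The Id1 and Id2 intervals left out 1 here, which those over all cells of day 6 did not. In the 29 cells with 2 or more Bmp4 UMIs the ratios were 0.454 (0.181 to 0.9499), 0.410 (0.163 to 0.856) and 0.481 (0.296 to 0.741). Of the cells without Bmp4, 84 were also Col4a1 cells, and of those with it, 0. With Col4a1 cells left out, a setting added after the data were seen, the ratios of cells with any Bmp4 were 0.704 (0.466 to 1.03), 1.13 (0.757 to 1.65) and 1.04 (0.863 to 1.26). The Dppa5a cells with Bmp4 were also deeper, with a median of 17239 UMIs, against 13223 in those without. After thinning to 5000 UMIs, Id1 was at 0.202 (0.00507 to 1.15) and Id2 at 0.194 (0.00486 to 1.11), from 1 UMI each in 33 cells with Bmp4. Id3 was then at 1.27 (0.715 to 2.11), and all these intervals held 1.

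Among cells with 20 or more Dppa5a UMIs, a bin chosen after the data were seen, the day 4 difference was smaller. There Id1 was at 15.6 CPM in the 145 cells with Bmp4 and 15.6 CPM in the 985 without (ratio 1.0, 0.662 to 1.46), the Id2 ratio was 0.617 (0.2996 to 1.15), from 5.53 and 8.96 CPM, and the Id3 ratio was 0.749 (0.595 to 0.934). In the same bin on day 6, Id3 was at 92.1 CPM (76.9 to 109) in the 80 cells with Bmp4 and 38.2 CPM (33.3 to 43.6) in the 392 without, a ratio of 2.41 (1.92 to 3.01). This Id3 ratio was not seen in the wider Dppa5a group of day 6, where it was 1.05 with an interval that held 1, and it goes the opposite way to the 0.481 found there for 2 or more Bmp4 UMIs. Of the 392 cells without Bmp4, 38 were also Col4a1 cells, and of the 80 with it, 0, and without the Col4a1 cells the Id3 ratio was 2.62 (2.08 to 3.31) and that of Id2 1.67 (1.03 to 2.66). With them, Id1 (1.25, 0.796 to 1.92) and Id2 (0.970, 0.618 to 1.48) had intervals that held 1.

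**Figure D4:**
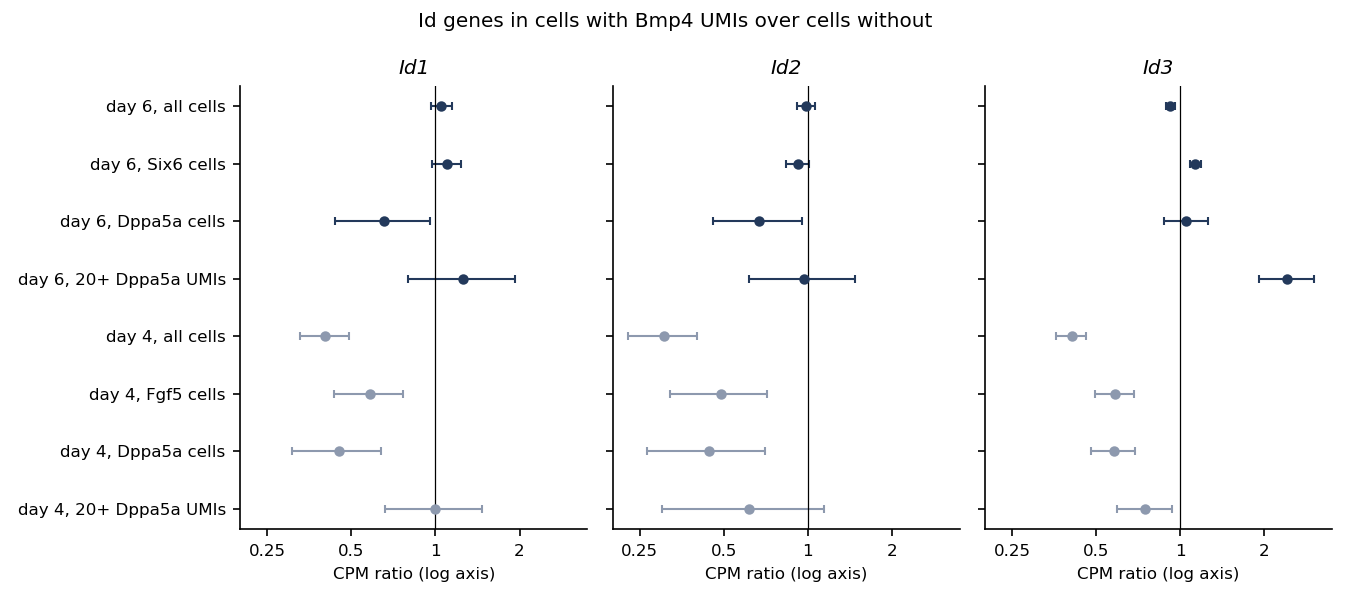
Ratio of the level of Id1, Id2 and Id3 (log axis) in cells with at least 1 Bmp4 UMI over cells with 0, in all cells and within groups of day 6 (dark, above) and day 4 (light, below); bars are exact conditional binomial 95% intervals and the line marks 1. All 3 genes lie left of 1 in all cells of day 4 (0.402, 0.305 and 0.408), and Id3 lies right of it in day 6 cells with 20 or more Dppa5a UMIs (2.41), a bin chosen after the data were seen, but not in all Dppa5a cells of day 6 (1.05).

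Within the Six6 cells of day 6, the 223 cells with Bmp4 had 609 CPM of Id3 and the 1778 without had 538 CPM (1.13, 1.08 to 1.19), whereas Id1 (1.10, 0.974 to 1.23) and Id2 (0.919, 0.838 to 1.01) differed less than their counting error. In the 34 Six6 cells with 2 or more Bmp4 UMIs the ratios were 1.42 (1.11 to 1.80) for Id1, 0.979 (0.791 to 1.20) for Id2 and 1.35 (1.22 to 1.49) for Id3. In the 23 such day 6 cells of no group they were 1.60 (1.16 to 2.16), 1.34 (0.987 to 1.77) and 1.09 (0.951 to 1.25). These cells were deeper, at medians of 17156 UMIs in Six6 cells and 13997 in cells of no group, against 12823.5 and 11345 without Bmp4. With any Bmp4 UMI the ratios in cells of no group were 1.15 (0.975 to 1.35), 1.15 (0.998 to 1.32) and 0.978 (0.916 to 1.04). After thinning they were 0.881 (0.562 to 1.32), 0.904 (0.631 to 1.26) and 0.970 (0.837 to 1.12). In Six6 cells they were then 1.10 (0.804 to 1.47), 0.947 (0.752 to 1.18) and 1.16 (1.03 to 1.30). Bmp7 split all cells of day 6 little. There, the 1360 cells with a Bmp7 UMI over the 5281 without had ratios of 0.916 (0.863 to 0.972) for Id1, 0.901 (0.859 to 0.946) for Id2 and 1.01 (0.986 to 1.03) for Id3. On day 4, over 234 and 7913 cells, they were 0.924, 0.746 and 0.793, and the Id3 ratio was 0.661 (0.516 to 0.835) after thinning. Within single groups some ratios lay farther from 1, on either side. Lower ones were Id2 at 0.553 (0.284 to 0.976) and Id3 at 0.605 (0.467 to 0.771) in day 4 Dppa5a cells, and Id1 at 0.617 (0.395 to 0.925) in day 6 Dppa5a cells. A higher one was Id1 at 1.18 (1.004 to 1.38) in day 6 Fezf2 cells. After thinning, Id2 was at 1.71 (1.03 to 2.73) and Id3 at 1.21 (1.02 to 1.43) in day 6 Wnt8b cells, from 30 cells with Bmp7. Some Id genes were also higher by size within day 6 Fgf5 cells. With 2 or more Bmp7 UMIs, Id1 was at 0.668 (0.525 to 0.837) in Six6 cells and 0.662 (0.521 to 0.8297) in cells of no group on day 6. Bmp7 itself was at 19.1 CPM in day 6 cells with Bmp4 and 18.2 CPM in those without (1.05, 0.870 to 1.25), and on day 4 at 4.86 and 2.39 CPM (2.03, 1.14 to 3.37) from 16 UMIs in the cells with Bmp4. A secreted ligand can act on cells other than those that make it, and this split reads only the cell's own transcripts.

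The 3 Id genes went together from cell to cell in the groups with enough cells. In day 6 Six6 cells thinned to 5000 UMIs, Id3 was at 462 CPM (447 to 479) where Id1 had 0 UMIs, 658 (624 to 693) where it had 1 and 843 (784 to 906) where it had 2 or more. In day 4 Fgf5 cells, Id3 was at 158, 279 and 443 CPM and Id2 at 24.9, 71.1 and 142 CPM over the same bins. In day 4 Dppa5a cells, Id3 was at 65.7, 121 and 314 CPM, the last bin holding 35 cells. In day 6 Six6 cells, Id2 was at 157 (148 to 167), 215 (196 to 236) and 218 CPM (188 to 250), the last 2 intervals overlapping. In each group plotted, cells with 2 or more Id1 UMIs had more Id3 and more Id2 than cells with 0, beyond the counting intervals. The Wnt8b and Dppa5a cells of day 6 had too few cells for the last bin. In both, Id3 was higher with 1 Id1 UMI than with 0 (1175 and 819 CPM in Wnt8b cells, 196 and 58.2 CPM in Dppa5a cells), while the Id2 intervals overlapped.

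**Figure D5:**
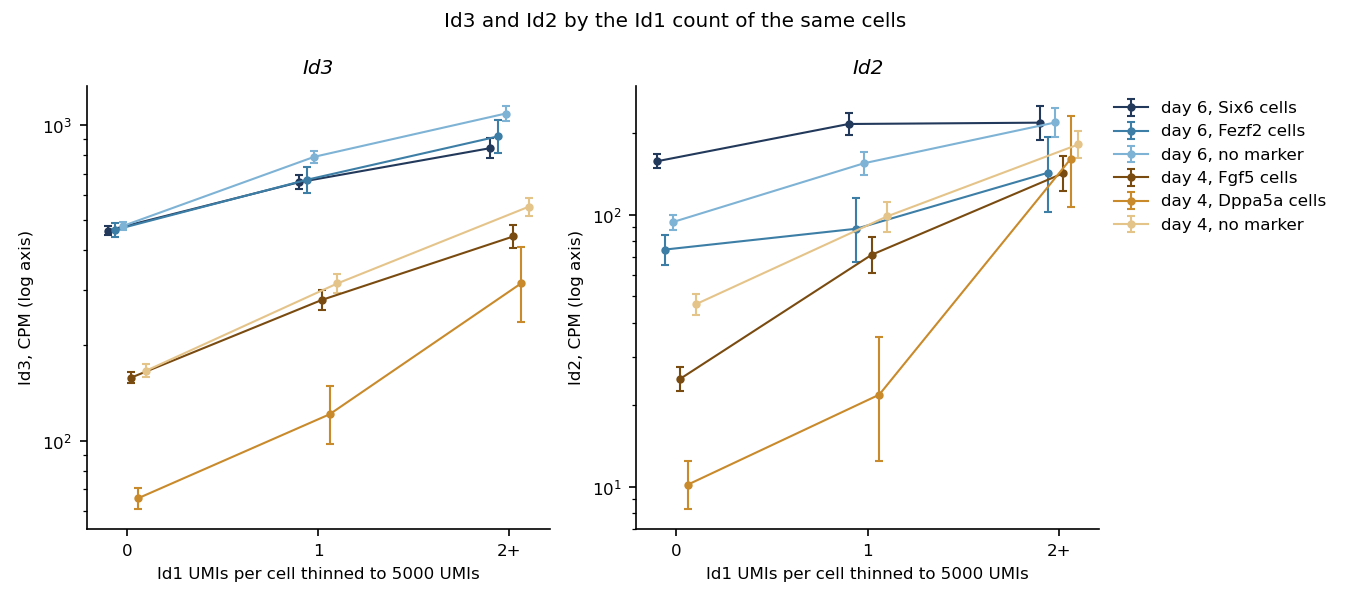
Level of Id3 (left) and Id2 (right) in CPM (log axis) in cells with 0, 1, and 2 or more Id1 UMIs after thinning to 5000 UMIs, in groups of day 6 (blue) and day 4 (brown); bars are exact Poisson 95% intervals. Every line goes up from the first bin to the last, as for Id3 in day 6 Six6 cells, from 462 CPM to 843 CPM.

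Of 55 other genes of the pathway, 14 had a mean of 10 CPM or more over the days, of which 5 were higher on day 6 (13.3% of all genes), 1 was lower (6.28%) and 8 were within the limits. Their median log2 ratio was 0.42, that of all genes 0.14. Of the 3 listed E proteins, partners of Id proteins, 2 were among the higher ones. These were Tcf12 at 92.0 CPM on day 6, against 32.1 on day 4 (2.86, 2.75 to 2.98), and Tcf4 at 77.9 and 34.6 CPM (2.25, 2.16 to 2.35). Tcf3, at 104 and 72.0 CPM (1.45, 1.40 to 1.49), was within the limits. Smad1, which carries the signal to the nucleus, was higher too, at 20.3 CPM on day 6, against 13.2 on day 4 (1.54, 1.43 to 1.65), and its relative Smad5 was at 17.6 and 13.96 CPM (1.26). The secreted BMP-binding proteins Twsg1 (1.69, 1.58 to 1.82) and Fstl1 (1.60, 1.52 to 1.69) completed the 5. Skil, a repressor of Smad activity, was lower, at 16.7 CPM on day 6, against 39.6 on day 4 (0.423, 0.398 to 0.449).

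The type I receptor Bmpr1a was at 38.1 CPM on day 6, against 28.4 on day 4 (1.34), the type II receptor Acvr2b at 29.6 and 22.4 CPM (1.32), and Bmpr2, under the level for a call, at 10.1 and 6.86 CPM (1.47). Bambi, a pseudoreceptor induced by BMP, was at 15.8 and 16.9 CPM (0.937, 0.872 to 1.01). Of 12 genes listed as inhibitors that act outside the cell, 2 could be called, Twsg1 and Fstl1, both among the 5 higher on day 6, and the other 10 lay under the level. Among these, Fst was at 10.7 CPM on day 6, against 4.32 on day 4, Nog at 1.86 and 0.0710 CPM, and Chrd at 0.547 and 1.11 CPM. Msx1, another target of BMP, was at 8.38 CPM on day 6, against 2.12 on day 4 (3.96, 3.39 to 4.64), and its relative Msx2 at 2.27 and 1.30 CPM. Smad7 and Smad6, which feed back on the receptor, were at 3.49 and 1.96 CPM and at 1.67 and 0.791 CPM. Id4, the remaining Id gene, was at 0.410 and 0.345 CPM. In the 368 Wnt8b cells of day 6, where Bmp4 was nearly absent, Bmp5, a ligand close to Bmp7, was at 5.28 CPM, against 0.852 CPM in the other cells (6.20, 3.90 to 9.63). In the Col4a1 cells, Bmp2, the ligand closest to Bmp4, was at 37.5 CPM and in the other cells at 0.524 CPM (71.7, 48.6 to 107). Bmp5 and Bmp2 are named here after their values were seen.

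Among 6928 genes at 10 CPM or more over the 9 groups of 50 or more cells, the patterns most like that of Id3, by Pearson's r of log2(CPM + 10), were those of Smc6 (0.992), Tkt (0.990) and Igf2bp3 (0.990). For Id2 they were Qk, Lrp6 and Rprd1b (each 0.967 or 0.966), for Id1 Cdkn2aip (0.976), Crnkl1 and Dr1, for Bmp4 Hibadh (0.931), Notch1 and Pole4, and for Bmp7 Rpl29 (0.974), Cntrl and Cdc25b. Among the members, r was 0.71 between Id1 and Id2, 0.69 between Id1 and Id3 and 0.55 between Id2 and Id3, and it was negative between Bmp4 and each Id gene (-0.54, -0.43 and -0.26 for Id1, Id2 and Id3). Bmp4 had a mean of 5.36 CPM over the 9 groups, under the 10 CPM asked of the ranked genes and the 10 added before the log. Some of the named genes varied little, such as Pole4, between 84.5 and 120 CPM. The named genes are the highest of 6928 over few groups. The 9 groups share 2 libraries and some cells, and these values describe them only.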

How the data were processed

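The values are UMI counts by gene and barcode, unnormalised, as the authors deposited them for build mm10; versions 2.0.1 of Cell Ranger and 2.3.4 of Seurat are named in the submitters' processing notes, and later versions of both in the study's methods. The filter kept barcodes with between 500 and 5000 genes, between 500 and 26000 UMIs, 10% or less mitochondrial, 20% or more ribosomal protein and 0.5% or less haemoglobin counts, which left 6641 of 7446 day 6 barcodes and 8147 of 9114 day 4 barcodes. Scrublet, run in scanpy 1.11.5, marked 0 and 1 barcodes and so did not work here, and doublets were in effect left in. No correction for free RNA was made. For each group of cells the UMIs of a gene were added up and set against all UMIs of the group. Levels carry exact Poisson intervals and ratios exact conditional binomial ones (scipy 1.17.1). UMIs come from molecular identifiers, but pooled experiments and batches add error that the intervals leave out. An upper limit for 0 UMIs was taken as the upper bound of the exact Poisson interval. The ratio code was tested on simulated data. Thinning to 5000 UMIs left out 0 day 6 cells and 182 day 4 cells. The members, the gene lists, the marker genes and thresholds were chosen with earlier results of these data known. The text names the 5 members, pathway genes called between the days, a set of listed pathway genes, and for each member the 3 genes of highest r. Alternatives changed the filter, the totals, the scaling, the thresholds and the groups.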

Additional observations from a re-analysis of the deposited data

Results flagged for a closer look

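The day ratio of Id2 and that of Id3 went opposite ways in different marker groups, each with an interval that left out 1. Id2 in Dppa5a cells was 1.98 times as high on day 6 as on day 4 (1.71 to 2.29), whereas the ratio was 0.585 (0.411 to 0.810) in Fgf5 cells and 0.768 (0.650 to 0.913) in Fezf2 cells. In cells of the Dppa5a group alone the Id2 ratio was 1.24 (0.988 to 1.56). Id3 had a ratio of 1.82 (1.65 to 2.01) in Fezf2 cells and 0.589 (0.505 to 0.682) in Fgf5 cells. The Fgf5 ratios rest on 101 day 6 cells, of which 71 were also Dppa5a cells, and with a minimum of 1 Fgf5 UMI the Id3 ratio was 1.05 (0.977 to 1.14), on the other side of 1, the Id2 ratio was 0.945 (0.794 to 1.12), and no member passed. With Col4a1 cells left out the Id2 ratio in Dppa5a cells was 1.36 (1.13 to 1.62). With 1 library per day the difference between groups was not tested, and the groups share cells.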

How the results depend on the processing

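No paired analysis was possible because each day is 1 library. Over the comparisons other than that of all cells by day, of 508 ratios of 1 gene under 1 alternative, 345 stayed within the counting interval of the reported ratio, 162 lay outside it and 1 called ratio turned direction, and 471 stayed on their side of 1. Over all cells, the Id2 ratio of day 6 over day 4 was 2.23 without a filter, 2.21 with totals that left out mitochondrial and ribosomal protein genes, 2.51 after thinning, 2.18 without cells in several groups, 2.16 centred on the median gene and 2.42 as a mean over cells. Id3 gave 2.65, 2.58, 2.79, 2.59, 2.52 and 2.79 in the same order. Id1 was 0.969 with the reduced totals, 0.961 without cells in several groups and 0.945 when centred, and Bmp7 was 6.31 after thinning. The cause was not tested. By size, 3 members were higher and 0 lower in each of the 9 alternatives run for this comparison.

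Counts of members changed as follows. With lower thresholds, the members higher in day 6 Dppa5a cells became 0, those lower in Wnt8b cells 0, those higher on day 6 in Dppa5a cells 1, and in Fgf5 cells 0 were higher and 0 lower, with an Id3 ratio of 1.05. With higher thresholds, 0 were lower in Wnt8b cells, 1 lower in day 4 Fgf5 cells and 0 higher on day 6 in Fgf5 cells. Exclusive groups gave 1 lower in day 6 Fezf2 cells and 1 higher on day 6 in Dppa5a cells. Groups from thinned cells gave 1 lower in day 6 Fezf2 cells, 0 lower in Wnt8b cells and 2 lower in day 4 Fgf5 cells. Reduced totals gave 2 higher in Six6 cells and 1 lower in day 4 Fgf5 cells. With Col4a1 cells left out, and likewise with Fgf5 cells left out, both added after the data were seen, 1 was higher on day 6 in Dppa5a cells. Without cells under 0.5% mitochondrial counts, or without the top 5% of Scrublet scores, 0 were higher on day 6 in Fgf5 cells. In cells with Bmp4, 1 Id gene was lower within day 6 Dppa5a cells, 1 higher in day 6 cells with 20 or more Dppa5a UMIs, and 0 lower in such cells of day 4. In cells with Bmp7, 1 was lower within Dppa5a cells and 2 higher within Fgf5 cells on day 6, and on day 4 1 was lower after thinning and 2 within Dppa5a cells. Groups left with under 50 cells, or 20 in the split by ligand, were not run. Bmp4 rests on 609 UMIs of day 6 and 283 of day 4, which limits its precision by group.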

Other observations

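Among Dppa5a cells, those with a Bmp4 UMI had more of the ligand Gdf3 and of the transcription factor Tbx3, both known from naive pluripotent cells, and this held on each day. Gdf3 was at 74.7 CPM in day 6 Dppa5a cells with Bmp4 and 44.9 CPM in those without (1.66, 1.33 to 2.06), and at 53.5 and 31.5 CPM on day 4 (1.70, 1.40 to 2.05). Tbx3 was at 30.4 and 11.1 CPM on day 6 (2.73, 1.87 to 3.94) and at 10.6 and 3.92 CPM on day 4 (2.71, 1.69 to 4.20). The grouping gene itself moved with the split: Dppa5a was at 5336 and 4231 CPM on day 6 (1.26, 1.23 to 1.29) and at 4137 and 2270 CPM on day 4 (1.82, 1.78 to 1.86). Of the day 6 cells, 0 of 90 with Bmp4 and 84 of 577 without were also Col4a1 cells. With 20 or more Dppa5a UMIs and Col4a1 cells left out, the Gdf3 ratio was 1.16 (0.918 to 1.44) on day 6 and 1.44 (1.17 to 1.75) on day 4, and that of Tbx3 was 3.40 (2.18 to 5.29) on day 6 and 2.43 (1.43 to 3.99) on day 4. These genes were picked after their values were seen.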
